A study of Arabidopsis thaliana with 58 samples.

Results

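Different levels of methylation of the same histone residue, H3K4me3 and H3K4me1, were compared along the genes of wild-type Arabidopsis seedlings. The comparison took the peak lists of 6 of the 58 samples in the series, 3 from chromatin immunoprecipitation with an antibody against H3K4me3 and 3 with an antibody against H3K4me1. All 6 libraries came from whole 9-day-old seedlings of the Col-0 ecotype grown in continuous white light, with no mutation and no treatment, and the groups differed in the antibody alone. For description, 3 H3K4me2 and 3 PKL peak lists from WT seedlings of the same age and light were read beside them, and expression came from 3 RNA libraries of pkl mutant seedlings, which are affected in PKL, of the same age and light. The samples are described as biological replicates. A whole seedling pools root, stem and leaf cells, so the lists cannot tell whether both marks of a gene lie in the same cells. Gene spans were those of 33331 nuclear genes in TAIR10 coordinates, of which 25279 were at least 1000 bp long.

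Lysine 4 of histone H3 can carry 1, 2 or 3 methyl groups. Trimethylation is a mark of the beginning of transcribed genes in plants, animals and yeast, and it is laid down by methyltransferases of the Trithorax type. In plants monomethylation lies in the body of genes, whereas in animals it is best known from enhancers. Demethylases related to human LSD1 and jumonji-domain proteins remove the methyl groups.

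The H3K4me3 lists held more and narrower peaks than the H3K4me1 lists. There were 16413, 16514 and 16639 peaks in H3K4me3 replicates 1, 2 and 3, against 15263, 14982 and 14976 peaks in H3K4me1 replicates 1, 2 and 3. The median peak width was 729, 700 and 679 bp in the H3K4me3 libraries and 1082, 1051 and 1053.5 bp in the H3K4me1 libraries. No H3K4me3 library reached the width or fell to the peak number of any H3K4me1 library. The tails differed more than the middles. Peaks over 2000 bp made up 0.499% ± 0.088 of the H3K4me3 peaks and 21.3% ± 0.77 of the H3K4me1 peaks (SD, n = 3 libraries each). The widest H3K4me3 peaks spanned 3124 to 3298 bp, against 24798 to 25410 bp for the widest H3K4me1 peaks. The genome covered was 12.5 ± 0.39 Mb under H3K4me3 peaks and 21.8 ± 0.57 Mb under H3K4me1 peaks (SD, n = 3 libraries each). This separation needed the weak H3K4me1 peaks. When peaks had to reach a −log10 q of 10, cover was 12.4, 11.9 and 11.5 Mb in H3K4me3 replicates 1, 2 and 3 and 15.5, 11.8 and 13.3 Mb in H3K4me1 replicates 1, 2 and 3, and the groups overlapped (exact permutation test, two-sided, p = 0.3).

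Each of the 22 measures compared between libraries, including number, width and cover, separated the marks without overlap in the peaks as deposited. An exact two-sided permutation test of 3 against 3 libraries gave p = 0.1 for each of them (Benjamini-Hochberg adjusted 0.1), the smallest value this design allows. The H3K4me3 peaks were also the stronger ones in the authors' own scoring. Their median fold enrichment was 5.77 ± 0.11 and that of H3K4me1 peaks 2.75 ± 0.056 (SD, n = 3 libraries each), with a median −log10 q of 49.2 ± 5.7 for H3K4me3 and 8.44 ± 0.81 for H3K4me1. The read depth of the 6 libraries is unknown, because the lists hold no read totals.

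Almost all peaks lay on genes, but at different places. A peak in no gene was rare, at 1.69% ± 0.058 of H3K4me3 peaks and 0.699% ± 0.044 of H3K4me1 peaks (SD, n = 3 libraries each). A gene start lay under 58.1%, 53.0% and 48.4% of peaks in H3K4me3 replicates 1, 2 and 3, against 1.93%, 1.62% and 1.74% of peaks in H3K4me1 replicates 1, 2 and 3. Peaks of both marks ran over a gene end seldom, 3.93% ± 0.56 of those of H3K4me3 and 3.26% ± 0.13 of those of H3K4me1 (SD, n = 3 libraries each). The share of peaks over a start thus set the marks far apart, and the share over an end hardly did.

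Within genes of at least 1000 bp, each gene was scaled from its start to its end along its strand. Its first 20% held 57.5%, 58.1% and 58.3% of the genic bp under peaks in H3K4me3 replicates 1, 2 and 3, against 6.26%, 6.19% and 6.3% in H3K4me1 replicates 1, 2 and 3. The middle 60% held 40.1% ± 0.40 of H3K4me3 cover and 83.4% ± 0.56 of H3K4me1 cover, and the last 20% held 1.95% ± 0.052 of H3K4me3 cover and 10.3% ± 0.55 of H3K4me1 cover (SD, n = 3 libraries each). H3K4me3 was thus concentrated at the start and low in the last 20%, and H3K4me1 was low at both ends. Summits, the highest point of each peak, were more sharply placed than cover: 79.1% ± 0.098 of H3K4me3 summits and 6.76% ± 0.13 of H3K4me1 summits fell in the first 20%. In the last 20% lay 1.43% ± 0.059 of H3K4me3 summits and 6.78% ± 0.12 of H3K4me1 summits, but with peaks that reached a −log10 q of 10 the order turned, at 1.10% ± 0.011 for H3K4me3 and 0.592% ± 0.16 for H3K4me1. The median summit lay at 0.116 ± 0.0022 of the gene length for H3K4me3 and 0.476 ± 0.0034 for H3K4me1 (SD, n = 3 libraries each, 0 at the start and 1 at the end).

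**Figure D1:**
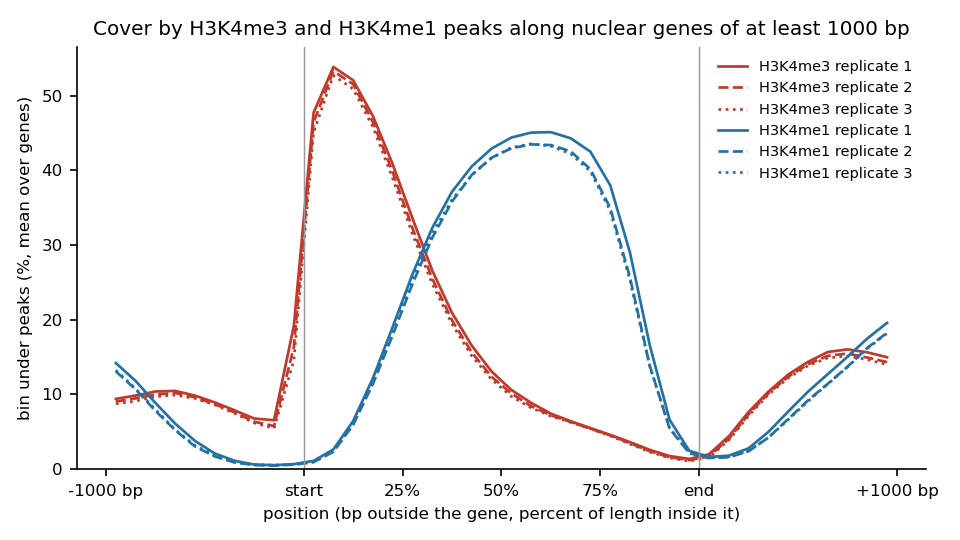
Share of each bin lying under peaks, averaged over nuclear genes of at least 1000 bp, for the 3 H3K4me3 libraries (red) and the 3 H3K4me1 libraries (blue). The gene is scaled into 20 bins and flanked by 1000 bp on each side in bins of 100 bp. The H3K4me3 lines peak at 5 to 10% of the gene, the H3K4me1 lines past the middle of the gene, and both marks are low at the gene end.

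The averaged profile along the gene showed the same order at finer scale. H3K4me3 was highest between 5% and 10% of the gene, where 53.8%, 53.3% and 52.7% of the bin lay under peaks in replicates 1, 2 and 3. H3K4me1 was highest between 60% and 65% in replicate 1, at 45.1%, and between 55% and 60% in replicates 2 and 3, at 43.5% each. In the last 100 bp before the start, cover was 19.2%, 16.3% and 14.5% in H3K4me3 replicates 1, 2 and 3 and 0.659%, 0.594% and 0.625% in H3K4me1 replicates 1, 2 and 3. In the last 5% of the gene both marks were low, at 1.36%, 1.19% and 1.06% for H3K4me3 and 2.44%, 2.12% and 2.21% for H3K4me1. The profile of H3K4me1 was therefore a plateau that began after the H3K4me3 peak and ended before the gene end.

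The same contrast was then tested gene by gene. A gene counted as marked in a library when at least 150 bp of it lay under peaks, and 10991 genes of at least 1000 bp were marked in all 6 libraries. For each, the mean position of the covered bp was computed in each library and compared with limma. H3K4me3 lay nearer the start in 10855 genes (98.8% of those tested) and nearer the end in 96 (0.873%), at an adjusted p under 0.05, so that 10951 (99.6%) were called, and 40 genes had no call. In 10853 genes (98.7%) all 3 H3K4me3 positions lay before all 3 H3K4me1 positions, and in 97 (0.883%) the reverse held. The median position was 0.140 for H3K4me3 (quartiles 0.0974 and 0.190) and 0.542 for H3K4me1 (quartiles 0.508 and 0.589). The median difference, H3K4me3 minus H3K4me1, was −0.41 of the gene length (quartiles −0.43 and −0.38).

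PKL itself, a CHD3-type chromatin remodeler and the subject of the series, showed the arrangement clearly. The gene spans 10180 bp at chr2:10713807-10723986 on the plus strand and is listed with 31 exons, and it overlaps another gene. H3K4me3 covered 631, 544 and 582 bp of it in replicates 1, 2 and 3, against 8857, 8640 and 8809 bp for H3K4me1. A single H3K4me3 peak ran from between −112 and −77 bp, before the start, to between 543 and 630 bp inside the gene. The first H3K4me1 peak began 531, 598 and 529 bp inside it in replicates 1, 2 and 3, where H3K4me3 ended at 630, 543 and 581 bp. By replicate number, the stretches overlapped in 1 and 3, and in 2 H3K4me1 began after H3K4me3 had ended. The mean positions were 0.0288 ± 0.0021 for H3K4me3 and 0.486 ± 0.0014 for H3K4me1 (SD, n = 3 libraries each; limma difference −0.46, SE 0.0066, adjusted p = 8.99e-09).

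**Figure D2:**
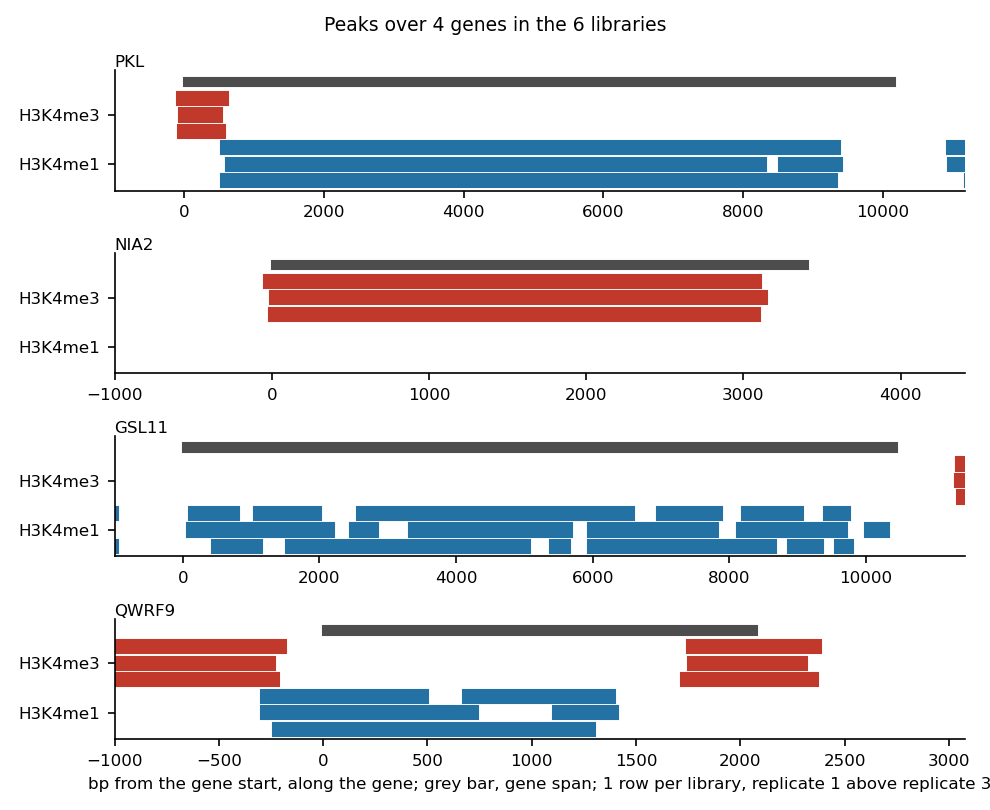
Peaks over PKL, NIA2, GSL11 and QWRF9 in the 3 H3K4me3 libraries (red, above) and the 3 H3K4me1 libraries (blue, below), by distance in bp from the gene start along the gene. PKL has H3K4me3 at the start and H3K4me1 over the rest, NIA2 has no H3K4me1 peak, GSL11 has no H3K4me3 peak inside the gene, and inside QWRF9 the H3K4me3 lies at the gene end.

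The hand-over seen in PKL was general. In the 10991 genes the first stretch of H3K4me3 ended 690 bp after the gene start (median, quartiles 584 and 830), and the first stretch of H3K4me1 began at 674 bp (quartiles 575 and 812). By library, the medians were 705, 687 and 676 bp for the 3′ edge of H3K4me3 in replicates 1, 2 and 3, against 666, 680 and 671 bp for the 5′ edge of H3K4me1. The library medians of the marks overlapped in range. The gap from one to the other had a median of −36.3 bp (quartiles −100.0 and 46.3), and 85.5% of genes had a gap of at most 200 bp in size. A negative gap means that H3K4me1 began before H3K4me3 ended. It is also negative where H3K4me1 lay wholly before H3K4me3 inside the gene, as in QWRF9 (−2078 bp). H3K4me1 began no later than the end of H3K4me3 in 6914 genes (62.9%), which does not require a shared base.

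Edge positions varied from gene to gene far more than between libraries, and they varied together. Between the 3 libraries of a mark, the SD of an edge had a median of 32.3 bp for H3K4me3 and 42.7 bp for H3K4me1. Across the 10991 genes, the Spearman correlation of the 3′ edge of H3K4me3 with the 5′ edge of H3K4me1 was 0.683. It was 0.658, 0.685 and 0.665 among genes of 1 to 2 kb, 2 to 4 kb and 4 kb and over. Both edges are measured from the same annotated start, which alone ties them together in part, and genes are not independent replicates. The annotated first base itself lay under H3K4me3 in 70.6%, 64.6% and 60.1% of these genes in replicates 1, 2 and 3, and under H3K4me1 in 0.155%, 0.10% and 0.109%.

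**Figure D3:**
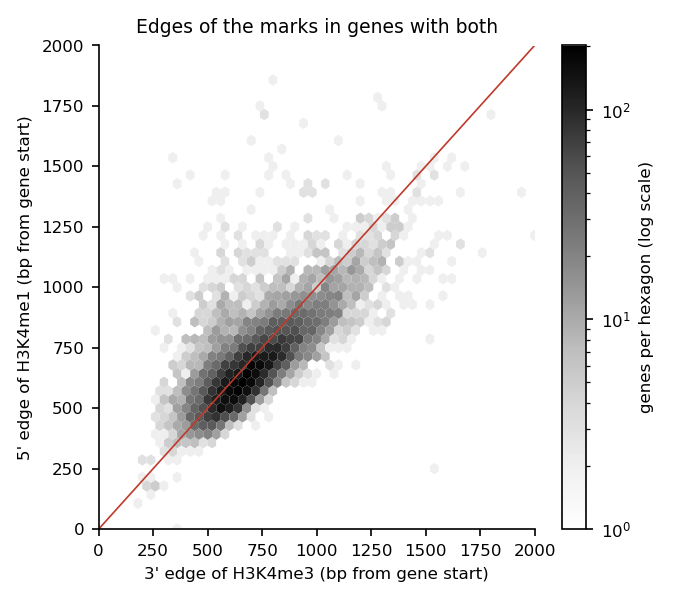
Distance from the gene start to the 3′ edge of H3K4me3 (x axis, bp) and to the 5′ edge of H3K4me1 (y axis, bp), as means over 3 libraries each, in 10991 genes with both marks. Shading gives genes per hexagon on a log scale, the line marks equal distances, and 202 genes lie beyond 2000 bp on an axis. The genes gather along the line around 690 bp for H3K4me3 and 674 bp for H3K4me1.

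The marks shared little sequence. Over the 9 pairs of an H3K4me3 with an H3K4me1 library, a median of 6.26% of H3K4me3 cover also lay under H3K4me1 (5.33% to 7.65%), and 3.56% of H3K4me1 cover also lay under H3K4me3 (3.02% to 4.41%). The shared length was 0.764 Mb (median). Many peaks touched all the same: 41.6% of H3K4me3 peaks and 46.6% of H3K4me1 peaks shared at least 1 bp with a peak of the other mark. Peaks with at least 50% of their length shared made up 0.347% of H3K4me3 peaks and 1.14% of H3K4me1 peaks. Of all bp under either of 2 libraries, 2.3% lay under both when the libraries were of different marks, against 89.0% between H3K4me3 libraries and 82.2% between H3K4me1 libraries (medians over pairs). In the bp common to all 3 libraries of each mark, 7036 of the 10991 genes (64.0%) had no shared base.

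The extent of H3K4me1 went with gene length, and that of H3K4me3 hardly did. In genes of 1 to 2 kb with both marks, the median was 634 bp under H3K4me3 and 709 bp under H3K4me1. In genes of 2 to 4 kb it was 696 bp under H3K4me3 and 1452 bp under H3K4me1, and in genes of 4 kb and over it was 679 bp under H3K4me3 and 3550 bp under H3K4me1. The Spearman correlation of gene length with covered bp was 0.121 for H3K4me3 and 0.884 for H3K4me1 across the 10991 genes, a description in which cover cannot exceed length. Between the covered bp of H3K4me3 and those of H3K4me1 it was 0.0039. The scaled position of H3K4me3 was closer to 0 in longer genes. Its median was 0.197, 0.137 and 0.0696 from the shortest to the longest of these classes, and that of H3K4me1 was 0.598, 0.541 and 0.505. The first stretch of H3K4me1 stopped 316, 502 and 822 bp before the gene end in the same classes (medians). Where H3K4me1 was split into several peaks, later stretches were not counted, so this need not be where the mark ended.

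**Figure D4:**
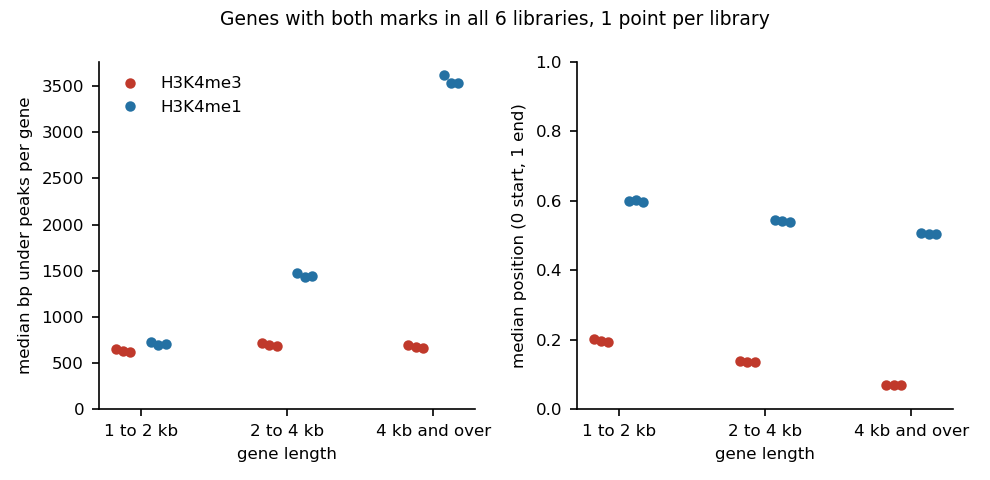
Median bp under peaks per gene (left) and median position in the gene (right, 0 start and 1 end) by gene length, in genes with both marks in all 6 libraries. Each point is 1 library, H3K4me3 in red on the left of each pair and H3K4me1 in blue. H3K4me3 stays near 634 to 696 bp, while H3K4me1 goes from 709 to 3550 bp with gene length.

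The percent of each gene under peaks was compared in the 17205 genes marked in at least 3 of the 6 libraries. H3K4me3 covered more in 5793 genes (33.7% of those tested) and H3K4me1 covered more in 9190 (53.4%; limma, adjusted p under 0.05). Genes with a single mark entered this test through the mark they have and had to differ, so these counts say nothing about them. Among the 11010 genes with both marks, H3K4me3 covered more in 1041, H3K4me1 covered more in 8183 and 1786 had no call. When peaks had to reach a −log10 q of 10, H3K4me3 covered more in 7003 of the genes tested and H3K4me1 covered more in 3514, with single-mark genes again bound to differ. Of the 3656 genes that then still had both marks, H3K4me3 covered more in 26 and H3K4me1 covered more in 3442. These genes were kept by H3K4me1 peaks that passed the cut, and such peaks were wider. Their median width averaged 1782 bp over libraries, against 1062 bp for all H3K4me1 peaks. These counts therefore follow in part from the filter.

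Genes were next sorted by which marks they carried. H3K4me3 was present in all 3 libraries with H3K4me1 in none in 4067 genes (12.2% of nuclear genes), and H3K4me1 was present in all 3 with H3K4me3 in none in 842 genes (2.53%). Both marks were present in all 6 libraries in 11010 genes (33.0%), no library showed either in 14504 (43.5%), and 2908 (8.72%) had a mark in some libraries of a group but not in all. The line at 150 bp cut few cases. Of the genes with H3K4me3 alone, 4031 had 0 bp of H3K4me1 in every library and 36 had up to 148 bp. Of those with H3K4me1 alone, 791 had 0 bp of H3K4me3 and 51 had up to 148 bp.

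The class with H3K4me1 alone was made of weak peaks. The strongest H3K4me1 peak over a gene had a median −log10 q of 5.55, 4.41 and 5.09 in replicates 1, 2 and 3 in genes with H3K4me1 alone, against 11.8, 9.51 and 10.5 in genes with both marks. For H3K4me3 the medians were 42.1, 38.2 and 36.6 in genes with H3K4me3 alone, against 63.3, 54.6 and 50.7 in genes with both. Under the stricter peaks there were 6763 genes with H3K4me3 alone and 55 with H3K4me1 alone. Of the original classes, 3331 and 50 genes were shared with these. A mark called absent here is one with under 150 bp under listed peaks, whatever signal lies below the peak threshold.

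The classes differed in structure and transcript level. Genes with H3K4me3 alone were short, with a median length of 1340 bp and 2 exons, and 43.5% had a single exon. Genes with H3K4me1 alone had a median of 2312.5 bp and 5 exons, and genes with both had 2687.5 bp and 7 exons, against 1844 bp and 3 exons for all nuclear genes. The share of genes with H3K4me3 alone was 15.0%, 19.6%, 6.81% and 2.02% among genes under 1 kb, of 1 to 2 kb, of 2 to 4 kb and of 4 kb and over. The share with both marks was 0.236%, 24.2%, 55.5% and 60.1% in the same order. Among genes under 1 kb, 19 had both.

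Transcript levels were taken from the 3 RNA libraries of pkl, and WT levels may differ. The deposited RNA tables also hold columns named WT, which could not be matched to a sample and were not used. The median transcript level per length was 15.5, 15.6 and 15.9 TPM in genes with H3K4me3 alone, 1.69, 1.69 and 1.83 TPM in genes with H3K4me1 alone, and 17.5, 18.1 and 18.5 TPM in genes with both (replicates 1, 2 and 3 in turn). It was 3.39, 3.58 and 3.69 TPM over all nuclear genes and 0 TPM in genes with neither mark. Genes with H3K4me1 alone thus stood below the median of all nuclear genes, and the other classes with H3K4me3 well above it. In each length class genes with H3K4me1 alone had the lowest median of the 3 marked classes. Among genes of 2 to 4 kb the median was 13.6 TPM with H3K4me3 alone, 1.94 TPM with H3K4me1 alone and 17.7 TPM with both. Across the 10991 genes with both marks, TPM had a Spearman correlation of 0.377 with the bp of H3K4me3 and of −0.032 with the percent covered by H3K4me1, as a description over genes.

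**Figure D5:**
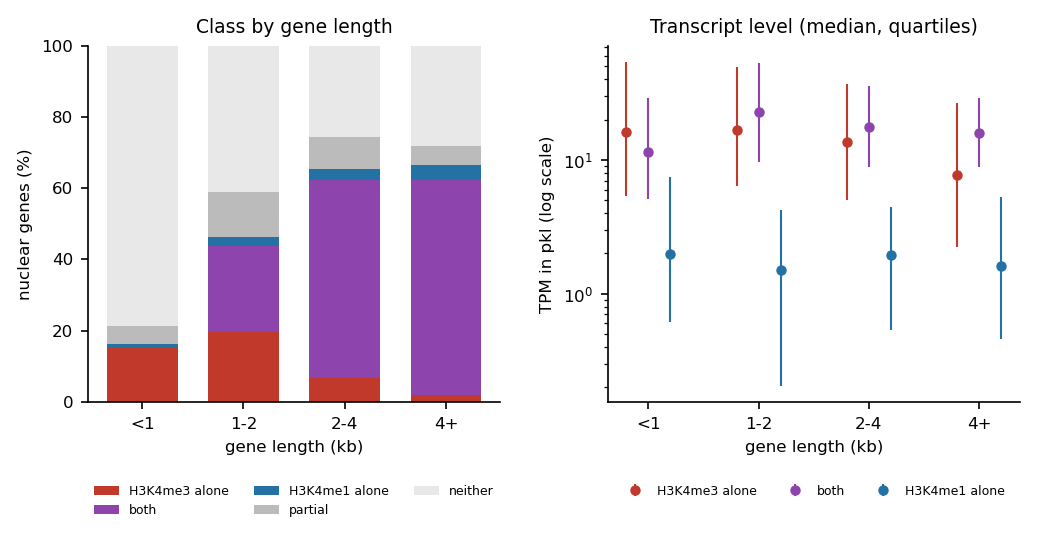
Left, share of nuclear genes in each class by gene length, where partial means a mark in some libraries of a group but not in all. Right, transcript level in pkl seedlings (TPM, log scale) by class and gene length, with points for medians over genes and bars for quartiles. Genes with H3K4me1 alone have medians of 1.49 to 1.96 TPM in every length class.

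Where the partner mark was missing, the edges of the mark that remained lay elsewhere. In genes of 1 to 2 kb, H3K4me3 ended 918 bp after the start in genes with H3K4me3 alone and 642 bp after it in genes with both, and covered 63.0% and 38.3% of the gene. In genes of 2 to 4 kb these ends lay at 1023 and 710 bp. H3K4me1 began nearer the start without H3K4me3: at 383 bp in genes with H3K4me1 alone and 635 bp in genes with both, among genes of 1 to 2 kb, and at 580 and 694 bp among genes of 2 to 4 kb. In genes of 4 kb and over the differences were small, with 717 and 691 bp for the end of H3K4me3 and 653 and 668 bp for the beginning of H3K4me1. The first base was covered by H3K4me1 in all 3 libraries in 14.8% of genes with H3K4me1 alone and 0.0999% of genes with both. H3K4me3 covered it in all 3 libraries in 27.4% of genes with H3K4me3 alone and 53.0% of genes with both, so its cover of the start differed as well. The classes were formed from these same peaks, so the edges are given without a test.

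H3K4me2 and PKL peaks of WT seedlings, 3 libraries each, were read over the same genes. H3K4me2 was present in all 3 of its libraries in 82.7% of genes with H3K4me3 alone, 47.6% of genes with H3K4me1 alone and 89.5% of genes with both, against 51.3% of all nuclear genes. In the 9835 genes with all 3 marks, the median position was 0.138 for H3K4me3, 0.210 for H3K4me2 and 0.541 for H3K4me1. H3K4me2 lay between the others in 95.8% of them. PKL peaks in at least 2 libraries were rare in every class, at 4.6% of genes with H3K4me3 alone, 0.119% with H3K4me1 alone and 0.781% with both, against 1.06% of all nuclear genes.

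The 12 named genes with H3K4me3 alone and the most bp under it were 2373 to 4644 bp long, longer than the class median, and 54.0% to 97.3% of their length was covered. NIA2, the main nitrate reductase of the leaf, had 3112, 3149 and 3108 bp of its 3412 bp (chr1:14158527-14161938) under H3K4me3 and 0 bp under H3K4me1 in all 3 libraries. A single peak began before the start, between −46 and −9 bp, and ran 3107 to 3148 bp into the gene, and its level in pkl was 799.9 TPM. The carbonic anhydrase genes CA2 and CA1 had 2777, 2530 and 2221 bp and 2735, 2264 and 2377 bp under H3K4me3, again with 0 bp of H3K4me1. Others were XYL4, a cell wall xylosidase, CLV1, the receptor kinase of the shoot meristem, LRX3, a cell wall extensin, GTL1, a trihelix transcription factor, CT-BMY, a chloroplast beta-amylase, SLP2 and ARA12, subtilisin-type proteases, and GTE7, a bromodomain protein. Their means ran from 2150 to 2914 bp under H3K4me3, and 0 bp was listed under H3K4me1 in each library. CLV1 had 14.2 TPM in pkl, so the group also held genes of moderate level. XYL4, CT-BMY, GTE7 and MIR398c overlap another gene, and for them the peaks cannot be given to one gene.

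The 12 named genes with the most H3K4me1 and no H3K4me3 call were 4447 to 10777 bp long. Their levels in pkl were 4.04 to 16.3 TPM, except for CIP1 at 62.6 TPM. GSL11, a glucan synthase gene of 10454 bp (chr3:21843407-21853860), had 0 bp under H3K4me3 in all 3 libraries, against 7998, 8832 and 8147 bp under H3K4me1. This cover was broken into 6 peaks in each library, none of which reached a −log10 q of 10. PRP40B, a splicing factor, had 0 bp under H3K4me3 and 8228, 8000 and 8141 bp under H3K4me1, and CCT, a Mediator subunit, had 0 bp under H3K4me3 and 8207, 7755 and 8125 bp under H3K4me1. Chromatin regulators were among these genes. LDL3, an LSD1-type H3K4 demethylase, had 54, 12 and 40 bp under H3K4me3 and 6460, 6399 and 6629 bp under H3K4me1. SDG25, an H3K4 methyltransferase also known as ATXR7, had 40, 0 and 50 bp under H3K4me3 and 5741, 5914 and 5886 bp under H3K4me1. HAC4, a histone acetyltransferase, had 0 bp under H3K4me3 and 5641, 5315 and 5459 bp under H3K4me1. LDL3 and SDG25 thus had H3K4me3 below the 150 bp line, and HAC4 had none inside the gene. In LDL3 and SDG25 it lay at the first bases of the gene, at mean positions of at most 0.0041. Cover before the annotated start is not counted, so a peak lying mostly upstream would not enter. The remaining genes of this rank were the class XI myosins XIG and XIJ, CIP1, which encodes a partner of the light regulator COP1, GNL1, a membrane traffic regulator, GMI1, a DNA repair gene, and YDA, a kinase of stomatal development. XIG and GNL1 had up to 118 and 40 bp under H3K4me3, also at the first bases of the gene, and the others had 0 bp.

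At the extreme of cover, both marks could fill a whole gene. PSAD-2, a subunit of photosystem I, FD1, a ferredoxin, H2AXA, a histone variant, LSH6 and EMB1687 lay under H3K4me3 in full length in all 3 libraries, with 0 bp under H3K4me1, and they were 654 to 943 bp long. In the other direction RBL5, with 1416 bp, and MIR838, with 207 bp, lay under H3K4me1 in full length, and both overlap another gene. GSL10, a glucan synthase gene of 14439 bp, had 153, 186 and 128 bp under H3K4me3 and 14003, 13991 and 13947 bp under H3K4me1. The 5 genes under H3K4me3 are among others tied at full cover.

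The genes in which the marks lay farthest apart were chosen for that difference, and their values are a description. BRS1, a carboxypeptidase, had H3K4me3 at 0.0602 and H3K4me1 at 0.892 of its length, and CKX5, a cytokinin oxidase, had them at 0.148 and 0.957. WRI1, a transcription factor of oil synthesis, had 1029, 1070 and 1064 bp under H3K4me3 and 535, 452 and 628 bp under H3K4me1, at mean positions of 0.140 and 0.853. Across the 10 named genes of this kind, which also include emb1703, GSL04, BRXL4, RPA70D, HEXO3, PGDH and OPT4, the difference ran from −0.83 to −0.67. All 10 were between 3146 and 9986 bp long. BRS1, CKX5 and PGDH overlap another gene, and for them the peaks cannot be given to one gene. Another gene started in the later part of GSL04, RPA70D and OPT4 or near their end. Neither held for emb1703, WRI1, BRXL4 and HEXO3. Whether a neighbour's peak accounts for the position of H3K4me1 was not tested.

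The 96 genes with H3K4me3 nearer the end often had a neighbour at that end. Another gene started in their last 50% or within 500 bp of their end in 66.7%, against 26.8% of all genes tested for position, and 65.6% overlapped another gene, against 18.5%. In all, 73 of the 96 had one or the other and 23 had neither, beside 4513 of the 10855 genes nearer the start with one or the other. An overlap counted wherever it lay in the gene. Their median level in pkl was 6.66 TPM, against 18.1 TPM for all genes tested. QWRF9 (chr5:17329275-17331352) had 336, 329 and 362 bp under H3K4me3, at a mean position of 0.918, and 1234, 1057 and 1302 bp under H3K4me1, at 0.321. Its H3K4me3 peak at the end ran past the gene end, and its H3K4me1 began before the start, between −300 and −239 bp. Another H3K4me3 peak lay wholly before the start in all 3 libraries, ending between −229 and −180 bp, and was not counted. It was the stronger, with a −log10 q of 55.2, 69.1 and 63.7 in replicates 1, 2 and 3. The peak at the end had 23.4, 17.1 and 25.4. The dynamin-related genes DRP4A, DRP4D and DRP4B, which are neighbours on chromosome 1, had differences of 0.65, 0.50 and 0.47, and these similar copies may share reads. The others were TRM9 (0.53), MYR1 (0.51), the condensin gene ATSMC2 (0.47), the receptor kinase gene ANX1 (0.45), the microtubule-associated MAP65-8 (0.45) and the myosin gene XIF (0.44). Of these 10 named genes, ATSMC2 was the one with no other start near its end, and it too overlaps a gene. Whether the neighbour's peak accounts for the position was not tested.

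Gene lists chosen by function fell into different classes. The listed histone methyltransferase genes all carried H3K4me1. Of 10, 8 had both marks, against 33.0% of all nuclear genes and 60.1% of those of 4 kb and over, and SDG25 and SDG4 had H3K4me1 alone, against 2.53% of all nuclear genes. H3K4me1 covered more in all 8 with both marks, against 74.3% of all genes with both, a share not matched for length. The median length of the list was 6276 bp. Genes of 4 kb and over with both marks had medians of 72.7% under H3K4me1 and 12.9% under H3K4me3. ATX1, a Trithorax-type enzyme, had 539, 476 and 647 bp under H3K4me3 and 4868, 4760 and 4668 bp under H3K4me1. SDG2, the main H3K4 methyltransferase for trimethylation in Arabidopsis, had 1174, 1027 and 1019 bp under H3K4me3 and 9987, 9965 and 9431 bp under H3K4me1. In all 8 genes with both marks H3K4me3 lay nearer the start, by −0.50 to −0.39, as it did in 98.8% of all genes tested.

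Of the 9 demethylase genes, with a median length of 5195 bp, 6 had both marks. The share was 33.0% of all nuclear genes and 60.1% of those of 4 kb and over. LDL3 and AT1G63490 had H3K4me1 alone, and MEE27 had H3K4me1 in replicates 2 and 3 but not in 1, at 0, 375 and 303 bp. H3K4me3 lay nearer the start in 5 of the 6, beside 98.8% of all genes tested. The exception was JMJ18, a jumonji-domain demethylase that overlaps another gene. Its H3K4me3 lay at 0.433, 0.462 and 0.318 and its H3K4me1 at 0.459, 0.455 and 0.468 in replicates 1, 2 and 3, and the groups overlap (limma difference −0.06, SE 0.036, adjusted p = 0.162).

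Chromatin remodeler genes were long, with a median of 9190 bp. Of 10, 9 had both marks, against 60.1% of genes of 4 kb and over. All 9 had H3K4me3 nearer the start (−0.48 to −0.42), as did 98.8% of all genes tested. All 9 had more H3K4me1 cover, against 74.3% of all genes with both marks, a share not matched for length. Genes of 4 kb and over with both marks had medians of 72.7% under H3K4me1 and 12.9% under H3K4me3. SYD, an ATPase of the SWI/SNF type, had 604, 593 and 526 bp under H3K4me3 and 14830, 15292 and 15212 bp under H3K4me1. BRM, its relative, had 341, 314 and 377 bp under H3K4me3 and 7865, 7628 and 7771 bp under H3K4me1. The remaining member, PKR2, a close relative of PKL, had 0 bp under H3K4me3 in all libraries and 0, 440 and 0 bp under H3K4me1.

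Of 15 photosynthesis genes, 9 had H3K4me3 alone, against 12.2% of all nuclear genes and 19.6% of those of 1 to 2 kb, 3 had both, 2 were partial and 1 had neither. Of the 3 with both, H3K4me3 covered more in 2, against 9.46% of all genes with both marks, and H3K4me1 covered more in GUN5. RBCS1A, the small subunit of Rubisco, had 1132, 1156 and 1142 bp of its 1267 bp under H3K4me3, and LHCB5, a light-harvesting protein, had 1630, 1582 and 1590 bp of 1662 bp, both with 0 bp of H3K4me1. GUN5, a chelatase subunit of chlorophyll synthesis and at 4894 bp the longest of the list, had 2153, 2019 and 2036 bp under H3K4me3 and 2688, 2397 and 2427 bp under H3K4me1. CAB1, CAB2 and CAB3 are near-identical neighbours whose reads may be shared, and CAB3, with at most 116 bp under H3K4me3, is uncertain for that reason. Of 21 core histone genes, with a median length of 732 bp, 16 had H3K4me3 alone, 2 had neither, 3 were partial and none had both. Of all genes under 1 kb, 15.0% had H3K4me3 alone and 0.236% had both. Some of the list are longer, and many are near-identical copies, so that counts per gene are uncertain.

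Housekeeping, clock and light signalling genes carried both marks for the most part. H3K4me3 was present in all 3 libraries in every member of these lists, against 16068 of 33331 nuclear genes. Both marks were present in 9 of 12, 10 of 12 and 8 of 12, against 33.0% of all nuclear genes and 55.5% of those of 2 to 4 kb. The median lengths of the lists were 2419.5, 3325 and 2963 bp. ACT2, an actin gene, had 874, 876 and 860 bp under H3K4me3 and 853, 839 and 811 bp under H3K4me1. UBQ10, a polyubiquitin gene, had 1734, 1761 and 1720 bp under H3K4me3 and 0 bp under H3K4me1. GI, a clock gene of 5873 bp, had 640, 747 and 680 bp under H3K4me3 and 4608, 4766 and 4620 bp under H3K4me1. ELF4, a clock gene of 619 bp, had 535, 526 and 502 bp under H3K4me3 and 0 bp under H3K4me1. Among light regulators, PHYB, a phytochrome, had 1086, 1032 and 1064 bp under H3K4me3 and 3064, 2844 and 3148 bp under H3K4me1. HY5, a transcription factor that promotes light responses, had 1088, 1213 and 1008 bp under H3K4me3, and 295, 0 and 0 bp under H3K4me1. All genes of these lists that were tested for position, 9, 10 and 8 in number, had H3K4me3 nearer the start, a share to be read beside the 98.8% of all genes tested.

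Of 23 developmental regulators known as targets of Polycomb repression, 19 had neither mark, against 43.5% of all nuclear genes and 25.7% of those of 2 to 4 kb, among them AG, a floral homeotic gene, WUS, a stem cell regulator, and FT, the flowering signal. FLC, a flowering repressor, had 372, 402 and 328 bp under H3K4me3 and 0 bp under H3K4me1, and KNAT1, a meristem homeobox gene, had 258, 316 and 266 bp under H3K4me3 and 0 bp under H3K4me1. ABI3 and CUC1 had H3K4me1 in 1 library each. Of 12 seed storage and oleosin genes, markers of another organ with a median length of 957 bp, none had H3K4me3 in any library. It was present in all 3 in 16068 of 33331 nuclear genes. Among genes under 1 kb, 15.0% had H3K4me3 alone and 0.236% had both marks. Of the 12, 9 had neither mark, against 43.5% of all nuclear genes and 78.6% of those under 1 kb. CRA1, a storage globulin, had 0, 281 and 342 bp under H3K4me1, CRU3 0, 461 and 0 bp and OLEO1 0, 255 and 0 bp. These low calls appeared in replicates 2 and 3 and not in replicate 1.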

How the data were processed

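Peak lists, 1 per library, were deposited by the authors. The submitters' processing notes name fastp, HISAT2 2.1.0, Bowtie2 2.3.3, SAMtools 1.6, MACS2 2.2.5, deepTools and TAIR10 without their roles, and the control library is not given in the sources used here. In the deposited lists, score is 10 × −log10 q without decimals, and the ratio is the fold enrichment over background at the summit. The authors' −log10 p and −log10 q and the summit offset (other) complete each line. Lists ended at q = 0.05. The deposited counts per gene gave gene spans and exons. The deposited expression table, named otherwise, holds TPM by its values, and the 3 pkl columns were averaged. Of the columns of these tables, 6, named WT (3 per table), matched no sample label and were not used. A RefSeq table supplied symbols and held 86.8% of nuclear genes, and 279 organellar genes were left out.

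Cover, position and classes were computed in Python 3.11.15 with numpy 2.4.6, pandas 2.3.3 and scipy 1.17.1, on merged peaks. Position and percent cover were fitted with limma 3.58.1 (lmFit and eBayes, R 4.3.3), two-sided, with Benjamini-Hochberg adjustment, and the scripts were tested on simulated data. Intervals were not computed, and spread is given as the SD over libraries or the SE of the fit. Where no replicate source is stated, p-values measure the spread between these samples. The genes named, taken if they have a symbol, were the 12 of each single-mark class with most bp, the 10 with the largest position difference and the 5 with the largest cover difference in each direction, members of 10 lists (136 genes), and PKL. The lists and tests were chosen with earlier results of these data known. Alternatives were stricter peaks, equal numbers of peaks, other minimum bp, isolated genes, other scales and each library left out. Promoter sequences were not analysed here.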

Additional observations from a re-analysis of the deposited data

How the results depend on the processing

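Of 106 recomputed values for 10 results, 94 stayed and 12 moved. Staying meant the same direction for differences between libraries, and gene counts within 1.5 times the reported ones. For the overlap it meant a change smaller than the SD over pairs. Only the differences between libraries could be scored as turned round, and none was. The order of the cover counts did turn with −log10 q of 10 or more. More H3K4me3 cover was then called in 7003 genes and more H3K4me1 cover in 3514, against 5793 and 9190 with all peaks. Some that kept their direction changed in size: the difference in peaks was 8924 instead of 1448 with −log10 q of 10 or more, that in median width −1058 instead of −359.5 bp, or −687.5 bp between mean widths, and that in the first 20% 45.2 points over isolated genes, 49.4 for any gene length and 72.3 for summits, instead of 51.7. When peaks had to reach a −log10 q of 10, 3629 genes had H3K4me3 nearer the start and 14 nearer the end, 3514 had more H3K4me1 cover, 6763 had H3K4me3 alone and 55 H3K4me1 alone, and the H3K4me3 cover also under H3K4me1 was 3.92%. By construction fewer peaks entered, mostly of H3K4me1. Over isolated genes alone, with no other gene within 500 bp, fewer genes were tested: 2546 (99.4%) had H3K4me3 nearer the start and 11 (0.430%) nearer the end, 1843 (13.2%) had H3K4me3 alone and 242 (1.73%) H3K4me1 alone. Counted by peaks, the overlap was 41.6% at 1 bp and 0.347% at 50% of a peak.

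Leaving out each library in turn gave 10868 to 11073 genes nearer the start, 92 to 103 nearer the end, 5479 to 5884 with more H3K4me3 cover, 8700 to 9297 with more H3K4me1 cover, 4144 to 4289 with H3K4me3 alone, 862 to 1026 with H3K4me1 alone and 6.04% to 6.55% of H3K4me3 cover under H3K4me1. The differences between marks were then 1389.8 to 1543 peaks, −372.7 to −347.7 bp in median width and 51.5 to 52.0 percentage points of cover in the first 20%.

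The marks share replicate numbers, but deviations of same-numbered libraries correlated at 0.0678, 0.0903 and 0.0583, so the numbers were not taken to pair them, although every library correlated best with its own number. With the number as a replicate block, 10860 genes were nearer the start, 97 nearer the end, 5749 had more H3K4me3 cover and 9146 more H3K4me1 cover. The planned search of promoter motifs was not run, since promoter sequences were not analysed here. Unknown depth limits every statement of absence.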

Other observations

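The single-mark classes also differed in gene type. Protein-coding genes made up 94.4% of the genes with H3K4me3 alone, 90.6% of those with H3K4me1 alone and 98.4% of those with both marks, and 58.7% of those with neither. Long noncoding RNA genes made up 2.14% of the genes with H3K4me3 alone (87 genes), 3.68% of those with H3K4me1 alone (31 genes) and 0.490% of those with both (54 genes). All 623 genes annotated as transfer RNA had neither mark, but a gene shorter than 150 bp could not count as marked. Of the genes with neither mark, 798 are annotated as transcribed pseudogenes.

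Upstream of the start, H3K4me3 occupied at least 150 bp of the 500 bp before the gene in all 3 libraries in 324 genes with H3K4me3 alone (7.97%), 89 genes with H3K4me1 alone (10.6%) and 1714 genes with both (15.6%). H3K4me1 did so in 21 (0.516%), 102 (12.1%) and 41 (0.372%) genes of these classes. The 89 genes with H3K4me1 alone thus had under 150 bp of H3K4me3 inside the annotated gene and at least 150 bp just before it.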
